A study of Mus musculus with 6 samples.

Results

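Nefl, Nefh, Map1b, Stmn3, Uchl1 and Eno2, 6 genes whose products build or mark the neuronal cytoskeleton and cytoplasm, were compared between adrenal glands of mice without PACAP and of wild-type mice. They were chosen by name: every arrayed cDNA clone whose annotated gene, under its current symbol, is 1 of these 6 was taken. This gave 23 clones, printed as 24 spots, out of 36284 clones on the array, and 6 of the 11837 genes that had a named clone. Nefl and Uchl1 had 5 clones each, as had Map1b, while Nefh and Stmn3 had 3 each and Eno2 had 2.

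PACAP stands for pituitary adenylate cyclase-activating polypeptide, the product of Adcyap1. Splanchnic nerve endings release it onto the chromaffin cells, which secrete catecholamines from the adrenal medulla. The study's question is which genes of the gland depend on it. Total RNA of PACAP -/- adrenal gland, labelled with Cy3, was hybridised on each of 6 spotted cDNA arrays together with total RNA of PACAP +/+ adrenal gland, labelled with Cy5. Both genotypes were F2 mice of mixed 129XC57BL6 background, and as a germline genotype the loss of PACAP was not limited to the adrenal gland. The labels give no age or sex, and do not say how many animals gave each RNA. The dyes were never exchanged, so a dye effect of a clone and the genotype effect cannot be told apart.

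Neurofilaments are the intermediate filaments of neurons. The light chain made by Nefl is needed for their assembly, and the heavy chain made by Nefh carries the long phosphorylated tails that space them in large axons. Map1b encodes a microtubule-associated protein of growing axons, Stmn3 a stathmin that destabilises microtubules, Uchl1 the ubiquitin hydrolase also called PGP9.5, and Eno2 the gamma enolase known as neuron-specific enolase. Uchl1 and Eno2 proteins mark chromaffin cells and other neuroendocrine cells as well as neurons. Chromaffin cells share the neural crest origin of sympathetic neurons. The adrenal gland also holds ganglion cells and the nerve fibres that reach it, although the mRNA of those fibres lies mostly in cell bodies outside the gland.

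RefSeq promoter windows, which run from 250 bases before to 50 bases after the gene's start, were found for 4 of the 6 genes in the table used here (build GRCm38.p6): Map1b, Uchl1, Eno2 and Stmn3. The 3 printed here belong to genes that each had a clone called higher in PACAP -/- glands when ratios were normalized within print blocks. Capitals mark matches to the letters of a TATA box (TATAAA) or a GC box (GGGCGG) on either strand. They were marked wherever they lay in the window, so a match need not be a working box.
Map1b, chr13:99516553-99516852, minus strand: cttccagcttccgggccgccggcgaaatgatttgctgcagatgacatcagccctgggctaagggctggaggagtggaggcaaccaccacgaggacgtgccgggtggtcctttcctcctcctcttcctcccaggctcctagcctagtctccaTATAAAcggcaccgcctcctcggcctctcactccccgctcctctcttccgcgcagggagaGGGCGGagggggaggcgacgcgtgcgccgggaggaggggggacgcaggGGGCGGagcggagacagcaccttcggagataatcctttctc
Uchl1, chr5:66675871-66676170, plus strand: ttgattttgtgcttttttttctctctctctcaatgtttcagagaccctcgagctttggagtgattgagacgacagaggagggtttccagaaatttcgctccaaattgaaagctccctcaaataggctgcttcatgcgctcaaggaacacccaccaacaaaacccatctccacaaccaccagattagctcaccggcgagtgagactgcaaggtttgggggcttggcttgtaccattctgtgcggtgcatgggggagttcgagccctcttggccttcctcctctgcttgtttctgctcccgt
Eno2, chr6:124769624-124769923, minus strand: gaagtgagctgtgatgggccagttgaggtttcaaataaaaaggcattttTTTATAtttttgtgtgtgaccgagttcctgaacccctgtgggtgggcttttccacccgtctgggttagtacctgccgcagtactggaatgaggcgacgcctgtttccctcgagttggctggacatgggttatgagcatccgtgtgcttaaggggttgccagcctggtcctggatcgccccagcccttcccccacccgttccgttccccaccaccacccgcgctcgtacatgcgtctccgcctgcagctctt
The Map1b window held 1 TATAAA and 2 GGGCGG matches, and had 65.7% G and C, against a median of 52.7% over all 32851 promoters. That of Eno2 held 1 TATAAA, read on the reverse strand, and 56.3% G and C. Neither motif was found in the Uchl1 window, which had 50.7% G and C, or in that of Stmn3, with 49.7%. Of all promoters, 13.6% held TATAAA and 35.7% held GGGCGG. The cAMP response element was searched too, since PACAP receptors raise cAMP: none of the 4 windows held TGACGTCA or its half-site TGACG, which 1.8% and 20.8% of all promoters held. The full element contains the half-site, so that these searches overlap.

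All ratios below are PACAP -/- over PACAP +/+ on the log2 scale, from deposited, background-subtracted signals of spots with a quality score above 0.3. A clone with values on at least 4 arrays was tested with limma, and called at a Benjamini-Hochberg adjusted p under 0.05 over all 28704 clones tested. Ratios were normalized in each array by global loess, which fits 1 curve to all spots, and also by print-tip loess, which fits 1 curve to each of the 48 blocks that a printing pin laid down. Both results are given, since global ratios differed with position on the slide: block means of the global ratio lay between -0.57 in block 1 and 0.56 in block 48, and blocks held 46.9% of the variance between spots. Deposited signals are not scaled between the dyes, so that only normalized ratios compare the genotypes. The quality filter kept 26027 to 31960 of 37632 spots per array. The median wild-type signal, already background-subtracted, was 1.11 to 4.57 times its local background, lowest on array 4 and next lowest on array 2. The median PACAP -/- signal was 5.15 to 6.79 times its own. Wherever signals are set against local background, they are already subtracted, so that a signal not above it can still be present. The 1 clone of the targeted gene, Adcyap1, passed the quality filter on 2 arrays, with global ratios of -0.17 and 0.02, and so gave no check of the genotype labels. In whole-gland RNA, fewer cells of a type and less RNA per cell cannot be told apart.

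Nefl, Map1b and Uchl1, which have 4, 4 and 5 of the 21 tested clones, gave most of the calls higher in PACAP -/- glands. Stmn3, with 3 tested clones, gave none. By print-tip loess the clones called higher were 2 of 4 for Nefl, 1 of 4 for Map1b, 2 of 5 for Uchl1 and 1 of 2 for Eno2. Global calls also differed with position on the slide, as described below. Of the 21 clones that could be tested, 11 were called by global loess (52.4%, against 30.4% of all clones), of which 7 were higher in PACAP -/- glands (against 16.2% of all clones) and 4 lower (against 14.2%). By print-tip loess, 6 of the 21 were called (28.6%, against 11.4% of all clones), all of them higher (against 6.75%), and 0 were called lower (against 4.6%), also at an unadjusted p under 0.05, where 11 were higher and 0 lower. The median ratio of the 21 clones was 0.27 by global and 0.23 by print-tip loess, against 0.02 and -0.00 over all clones. Ratios above 0 were found for 13 of the 21 clones by global (61.9%, against 51.6% of all clones) and 17 by print-tip loess (81.0%, against 49.7%). Of the 21 clones, 16 come from the clone library that the files call BMAPI, and so do all 6 that print-tip loess called. In that library print-tip loess called 10.0% of all clones higher and 1.69% lower, against 4.9% and 7.65% in the library called NIA, and the part of the clone library in these counts was not tested. The calls made by both methods in the same direction were 3 of 21: the Nefl clones in blocks 31 and 36 and the Map1b clone in block 25. Over the whole array, 2020 of 28704 clones were called by both methods in the same direction.

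**Figure D1:**
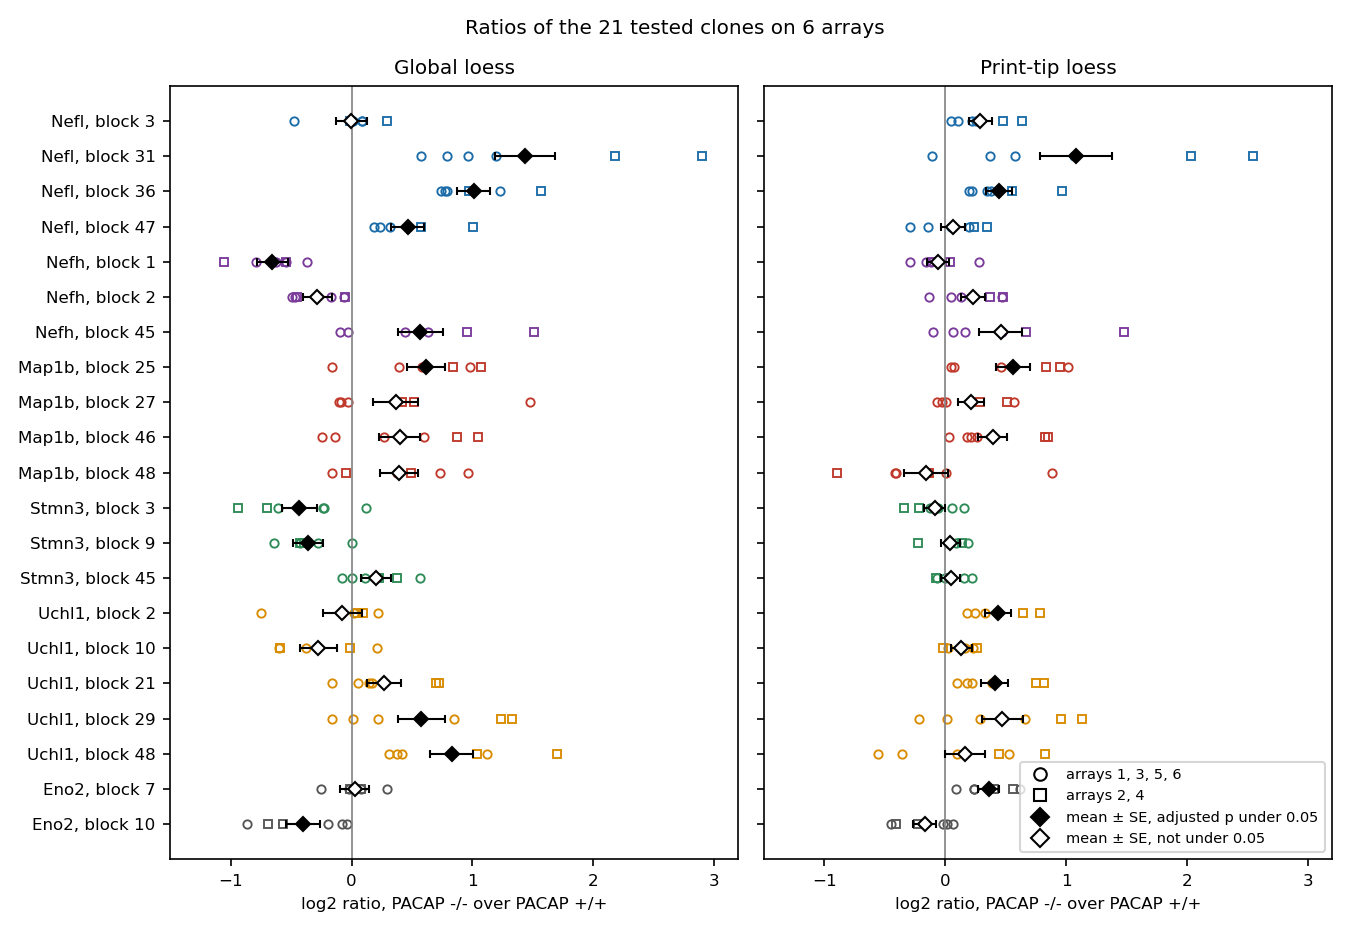
Log2 ratio, PACAP -/- over PACAP +/+, of each tested clone (rows) on each array (open symbols, squares for arrays 2 and 4), by global loess on the left and print-tip loess on the right. Diamonds are means ± SE, filled where the adjusted p was under 0.05. Nefl in block 31 has the highest mean in both panels (1.43 and 1.08), set apart by arrays 2 and 4, and the clones of Nefh, Stmn3 and Eno2 lie on both sides of 0 on the left.

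Nefl, the light chain, was higher in PACAP -/- glands in 3 of its 4 tested clones by global loess and in 2 of them by print-tip loess. The Nefl clone in block 31 had signals of 18667 to 30647 (median 25725) in PACAP -/- RNA, against 1370 to 20375 (median 5165) in wild-type RNA. Before any scaling between the dyes, PACAP -/- signals stayed within a narrower band than wild-type signals, which were lowest on arrays 4 and 2. Over all spots the median wild-type signal was lowest on these arrays too, at 1.11 and 1.32 times local background. Low wild-type signals on arrays 4 and 2 were thus not particular to this clone. Its normalized ratios on arrays 1 to 6 were 0.58, 2.17, 0.97, 2.90, 0.79 and 1.20 by global loess. Every array was above 0, and arrays 2 and 4 were the highest. The mean ratio was 1.43 ± 0.25 (SE, n = 6, limma adjusted p = 0.0018), a fold of 2.70. By print-tip loess it was 1.08 ± 0.30 (limma adjusted p = 0.047), a fold of 2.12, with array 6 at -0.11 and the other 5 arrays above 0. The print-tip call was lost whichever array was left out, with limma adjusted p-values from 0.0505 to 0.12. This clone carries the title of an unnamed expressed sequence in the scanner files and belongs to another UniGene cluster than the clones titled neurofilament light chain, so its place among the Nefl clones rests on the platform annotation alone.

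The remaining 3 tested Nefl clones are titled as the light chain. That in block 36 had signals of 990.1 to 1659 (median 1301) in PACAP -/- RNA, against 129.6 to 447.6 (median 266.3) in wild-type RNA. Its ratio was above 0 on every array by both methods, between 0.74 and 1.56 by global loess and between 0.20 and 0.97 by print-tip loess. The means were 1.01 ± 0.14 (limma adjusted p = 0.00064) and 0.44 ± 0.11 (limma adjusted p = 0.035), folds of 2.01 and 1.36. The print-tip call was lost when any of arrays 2 to 6 was left out. The block that holds it had a mean of 0.48 over its other spots by global loess.

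Nefl in block 47 had signals of 1832 to 2918 (median 2493) in PACAP -/- RNA, against 448.7 to 1639 (median 710.3) in wild-type RNA. It was called by global loess only, with all 6 arrays between 0.19 and 1.00 and a mean of 0.46 ± 0.13 (limma adjusted p = 0.019). By print-tip loess the arrays lay on both sides of 0 and the mean was 0.07 ± 0.10 (limma adjusted p = 0.66). The global call was lost without array 2 or 4. Nefl in block 3 had signals of 1207 to 2965 (median 2378) in PACAP -/- RNA, against 484.3 to 2280 (median 1028) in wild-type RNA. It was not called by either method: its mean was -0.00 ± 0.13 by global loess (limma adjusted p = 0.99) and 0.29 ± 0.09 by print-tip loess (limma adjusted p = 0.067). With print-tip loess it was above 0 on all 6 arrays. The last clone annotated to Nefl, also in block 47 and titled as an unrelated RIKEN cDNA, had a quality score of 0 on every array and was not tested.

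**Figure D2:**
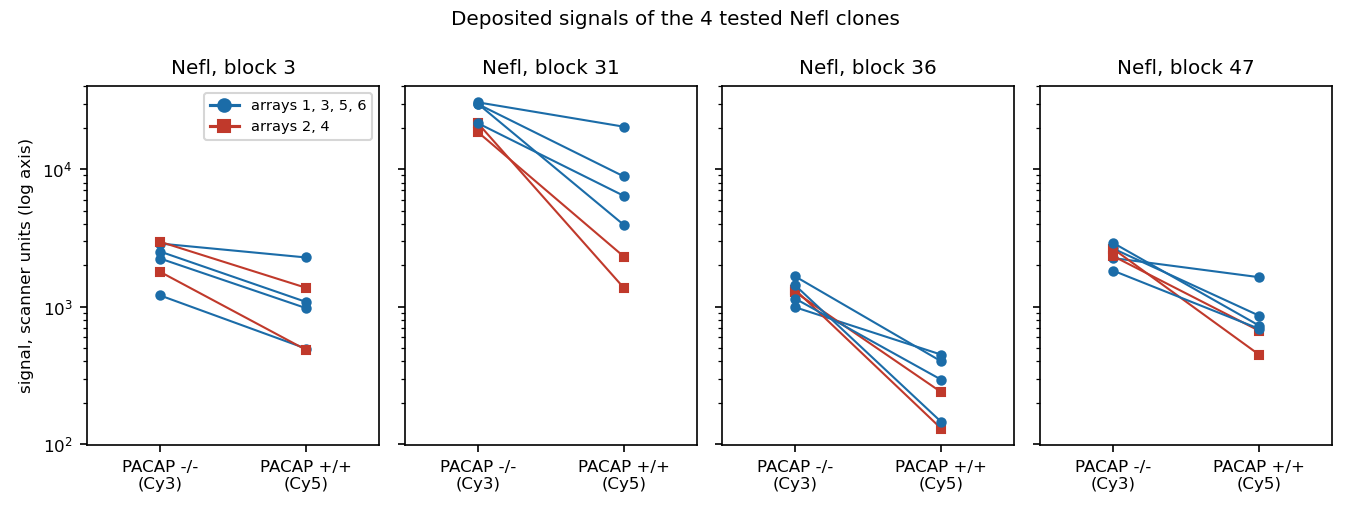
Deposited, background-subtracted signals of the 4 tested Nefl clones on a log axis, PACAP -/- (Cy3) on the left of each panel and PACAP +/+ (Cy5) on the right. Each line is 1 array. Wild-type signals of the block 31 clone run from 1370 to 20375 and PACAP -/- signals from 18667 to 30647, before any scaling between the dyes.

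In 5 of the 6 pairs of tested Nefl clones, the ratios followed each other across arrays more closely once blocks were fitted separately. Pearson's r over the 6 arrays between the clones in blocks 31 and 3 was 0.34 by global and 0.98 by print-tip loess, and between those in blocks 31 and 36 it was 0.82 and 0.89. These coefficients describe 6 arrays that share dyes and slides, of which arrays 2 and 4 are the farthest out. The clones with the pattern most like that in block 31 were those of Slc35b2 and Ssbp4, followed by Pikfyve, Abat and Rnf167, with r between 0.993 and 0.996 over the 6 arrays by global loess. Of 14683 other clones compared, 359 (2.45%) had an r above 0.9, and Pikfyve and Rnf167 had mean ratios below 0, of -0.22 and -0.12.

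Nefh, the heavy chain, gave opposite calls by global loess from clones that all carry its title. Its clones lay in blocks 1, 2 and 45, where the other spots had global means of -0.57, -0.49 and 0.13. In block 1, the Nefh clone had signals of 554.3 to 2036 (median 955.0) in PACAP -/- RNA, against 335.8 to 906.0 (median 810.2) in wild-type RNA. By global loess it was below 0 on all 6 arrays, from -1.06 to -0.37, with a mean of -0.65 ± 0.13 (limma adjusted p = 0.0030). Nefh in block 45 had signals of 517.9 to 2185 (median 973.0) in PACAP -/- RNA, against 116.8 to 662.2 (median 280.8) in wild-type RNA. It was above 0 on 4 of 6 arrays, with array 2 at 1.51, and had a mean of 0.57 ± 0.18 (limma adjusted p = 0.032), a call that was lost without array 2, 3, 4 or 6. Nefh in block 2, at 514.4 to 1453 (median 984.8) in PACAP -/- RNA and 194.5 to 984.8 (median 516.2) in wild-type RNA, was below 0 on all 6 arrays and was not called, with a mean of -0.28 ± 0.12 (limma adjusted p = 0.093).

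None of the 3 Nefh clones was called by print-tip loess (limma): the means in blocks 1, 2 and 45 were -0.06, 0.23 and 0.46, with adjusted p-values of 0.67, 0.14 and 0.11. The clones still differed from each other within arrays. Block 1 lay below block 45 on all 6 arrays, by a mean of -1.22 ± 0.29 (SE) by global loess and -0.52 ± 0.21 by print-tip loess. It lay below block 2 on all 6 arrays as well, by -0.37 ± 0.08 and -0.29 ± 0.07. Each of these 4 differences had a two-sided exact sign-flip permutation p of 0.03125, the smallest that 6 arrays allow, and over the 4 pairs compared for Nefh and Eno2 the adjusted value was 0.0625 by global loess and 0.042 by print-tip loess. Block 2 lay below block 45 by -0.85 ± 0.24 on 5 of 6 arrays by global loess (exact permutation p = 0.0625) and by -0.23 ± 0.17 by print-tip loess (exact permutation p = 0.1875). The clones thus gave Nefh no single direction.

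Map1b, the microtubule-associated protein of growing axons, had 4 tested clones, all with a mean above 0 by global loess. The clone in block 25, titled as microtubule-associated protein 5, an older name of Map1b, had signals of 997.5 to 1887 (median 1217) in PACAP -/- RNA, against 200.1 to 1070 (median 287.4) in wild-type RNA. It was called higher by both methods, at 0.62 ± 0.16 (limma adjusted p = 0.011) by global loess and 0.56 ± 0.14 (limma adjusted p = 0.038) by print-tip loess. The exact sign-flip permutation test of its ratios gave p = 0.0625 by global and 0.03125 by print-tip loess. Array 1 was the lowest, at -0.16 and 0.05, and the highest was array 2 by global loess, at 1.07, and array 6 by print-tip loess, at 1.01. The mean of the other spots in its block was 0.04. The global call held whichever array was left out, and the print-tip call was lost without array 2, 3, 4 or 6.

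The Map1b clones in blocks 27 and 46 carry the same title and were not called. Their means were 0.36 ± 0.19 and 0.40 ± 0.17 by global loess (limma adjusted p = 0.15 and 0.088), and 0.21 ± 0.11 and 0.39 ± 0.12 by print-tip loess (limma adjusted p = 0.19 and 0.061). By print-tip loess the clone in block 46 was above 0 on all 6 arrays. On 2 of them its background-subtracted wild-type signal was not above the local background. The clone in block 48, titled as an elastin-like expressed sequence, had 0.39 ± 0.15 by global loess (limma adjusted p = 0.066), while by print-tip loess it had -0.16 ± 0.18 (limma adjusted p = 0.57). Its signals were 400.0 to 667.5 in PACAP -/- RNA, against 60.3 to 283.7 in wild-type RNA. The last Map1b clone, in block 31, did not pass the quality filter on any array.

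Stmn3, the microtubule-destabilising stathmin, was lower in PACAP -/- glands in 2 of 3 clones by global loess and in none by print-tip loess. Stmn3 in block 3 had signals of 421.7 to 1146 (median 590.3) in PACAP -/- RNA, against 161.8 to 616.8 (median 336.4) in wild-type RNA. Its mean was -0.43 ± 0.15 (limma adjusted p = 0.038), with array 5 above 0. In block 9, the Stmn3 clone had signals of 995.0 to 1693 (median 1330) in PACAP -/- RNA, against 398.8 to 1135 (median 720.2) in wild-type RNA. Its mean was -0.36 ± 0.12 (limma adjusted p = 0.039), with array 1 at 0.01 and the other 5 arrays below 0. The third clone, in block 45, had signals of 381.9 to 1742 (median 536.0) in PACAP -/- RNA, against 84.6 to 516.8 (median 174.0) in wild-type RNA, and a mean of 0.20 ± 0.13 (limma adjusted p = 0.24). The call in block 3 was lost without array 2, 3, 4 or 6, and that in block 9 was lost when any of arrays 2 to 6 was left out. The blocks of the 2 lower clones had global means of -0.35 and -0.40, and that of the third 0.13. By print-tip loess the 3 means were -0.09, 0.04 and 0.05, with limma adjusted p-values of 0.50 to 0.73 and SEs of 0.08 to 0.09.

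Uchl1, the ubiquitin hydrolase, had 5 tested clones, and each method called 2 of them higher in PACAP -/- glands, but not the same ones. Titled as Uchl1 are those in blocks 10, 29 and 48. Uchl1 in block 48 had signals of 813.0 to 1384 (median 1036) in PACAP -/- RNA, against 67.1 to 613.5 (median 237.6) in wild-type RNA. It was above 0 on all 6 arrays by global loess, with a mean of 0.83 ± 0.17 (limma adjusted p = 0.0045), while by print-tip loess it had 0.16 ± 0.17 (limma adjusted p = 0.52). The mean of its block was 0.56, the highest of all blocks. In block 29, the Uchl1 clone had signals of 1777 to 2441 (median 1950) in PACAP -/- RNA, against 241.5 to 1737 (median 584.8) in wild-type RNA. It was called by global loess, at 0.58 ± 0.19 (limma adjusted p = 0.035), and not by print-tip loess, at 0.47 ± 0.17 (limma adjusted p = 0.085). Its block mean was 0.08, and arrays 2 and 4, at 1.32 and 1.23 by global loess, were the highest. Without array 2, 3 or 4 the global call in block 29 was lost.

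In block 10, the Uchl1 clone had values on 5 arrays, with signals of 251.6 to 459.2 in PACAP -/- RNA against 94.5 to 215.1 in wild-type RNA. The wild-type signal, already background-subtracted, was above its local background on 3 arrays. It was not called, at -0.27 ± 0.16 by global loess (limma adjusted p = 0.19) and 0.13 ± 0.09 by print-tip loess (limma adjusted p = 0.31). The clones in blocks 2 and 21 are annotated to Uchl1 but titled otherwise, the first as an expressed sequence and the second by its likeness to another protein. Both were called by print-tip loess only, at 0.44 ± 0.11 (n = 5 arrays, limma adjusted p = 0.041) and 0.41 ± 0.11 (n = 6 arrays, limma adjusted p = 0.044). The call in block 2 was lost without array 2, 3, 4 or 6, and that in block 21 when any of arrays 2 to 6 was left out. By global loess they had -0.08 ± 0.16 (limma adjusted p = 0.75) and 0.27 ± 0.14 (limma adjusted p = 0.16). With print-tip loess, all 5 Uchl1 clones had a mean above 0, between 0.13 and 0.47. A further clone titled Uchl1, in block 7, is annotated to Klf13 and was left out by the rule; it had 0.18 ± 0.16 by global loess (limma adjusted p = 0.40) and 0.37 ± 0.18 by print-tip loess (limma adjusted p = 0.19).

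Eno2, the gamma enolase, gave clones that disagreed. Both are titled as enolase 2. The clone in block 7 had signals of 632.1 to 997.5 (median 926.0) in PACAP -/- RNA, against 150.8 to 747.2 (median 332.5) in wild-type RNA. It was at 0.03 ± 0.12 by global loess (limma adjusted p = 0.88), and was called higher by print-tip loess, above 0 on all 6 arrays, at 0.36 ± 0.09 (limma adjusted p = 0.037). In block 10, the Eno2 clone had signals of 387.7 to 1117 (median 570.6) in PACAP -/- RNA, against 198.9 to 516.4 (median 284.8) in wild-type RNA. It was called lower by global loess, below 0 on all 6 arrays, at -0.40 ± 0.14 (limma adjusted p = 0.041), and had -0.17 ± 0.09 by print-tip loess (limma adjusted p = 0.23). Its call was lost without array 2, 3, 4 or 5, and that in block 7 without array 2, 3, 4 or 6.

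Within arrays, the Eno2 clone in block 7 lay above that in block 10 by 0.43 ± 0.16 on 5 of 6 arrays by global loess (exact permutation p = 0.094) and by 0.53 ± 0.13 on all 6 by print-tip loess (exact permutation p = 0.03125, adjusted 0.042). Their blocks had similar means, of -0.25 and -0.21. Pearson's r between the clones over the 6 arrays was -0.01 by global and -0.04 by print-tip loess. Another clone titled Eno2, in block 19, had no annotated gene, and had -0.09 ± 0.12 by global (limma adjusted p = 0.60) and -0.14 ± 0.08 by print-tip loess (limma adjusted p = 0.24).

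The direction of the calls among the 6 genes differed with position on the slide. In blocks 1 to 24, 0 of 10 clones were called higher and 4 lower by global loess, and in blocks 25 to 48, 7 of 11 were called higher and 0 lower. All clones of the array had the same tilt, with 990 higher and 3837 lower calls among 14773 clones in blocks 1 to 24. In blocks 25 to 48 there were 3656 higher and 239 lower calls among 13931 clones. By print-tip loess, 3 of 10 and 3 of 11 were called, all higher, against 11.3% and 11.4% of all clones of those blocks called in either direction. Across the 21 clones, which share arrays and slides, Pearson's r between a clone's mean ratio and the mean of the other spots in its block was 0.80 by global and 0.15 by print-tip loess, and 16 of 21 lay above that block mean. The share of all clones above their block mean is not given here.

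**Figure D3:**
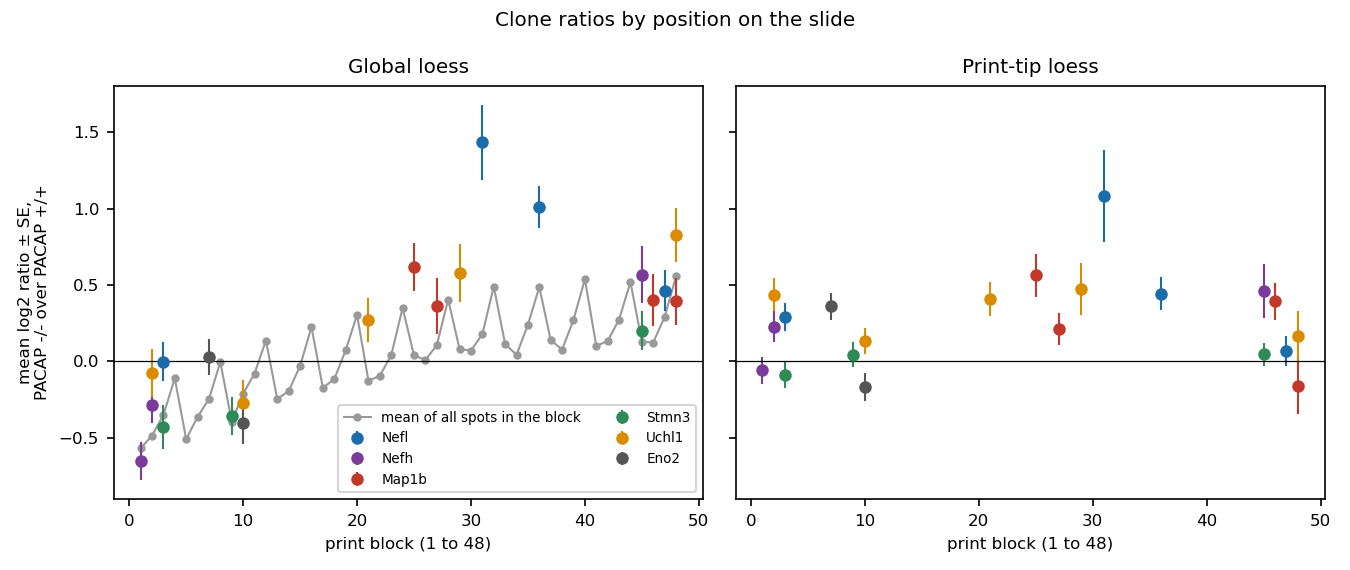
Mean log2 ratio ± SE, PACAP -/- over PACAP +/+, of the 21 tested clones against the number of their print block, with the mean of all spots of each block in grey for global loess. On the left the clones follow the climb of the block means from -0.57 to 0.56. On the right, by print-tip loess, 17 of 21 lie above 0.

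Arrays 2 and 4 had the highest medians over the clones of the 6 genes, 0.41 and 0.29 by global and 0.48 and 0.56 by print-tip loess. The other arrays had medians between -0.08 and 0.17 by global loess, and between 0.02 and 0.22 by print-tip loess. Without these 2 arrays, 19 of the clones could be tested, and 3 were called by global loess (against 8.62% of all clones), 2 of them higher (against 6.22%) and 1 lower (against 2.39%). They were Nefl in block 31 at 0.88 ± 0.17, Nefl in block 36 at 0.88 ± 0.17 and Nefh in block 1 at -0.58 ± 0.16 (limma adjusted p = 0.010, 0.009 and 0.039). By print-tip loess 0 were called (limma, against 0.359% of all clones, 0.336% higher and 0.0231% lower), and 5 had an unadjusted p under 0.05, all higher. Leaving out 1 array at a time kept 5 global calls in all 6 fits, those of Nefl in blocks 31 and 36, Nefh in block 1, Map1b in block 25 and Uchl1 in block 48. How many of all clones kept a global call in every fit is not given here. By print-tip loess no call of the 6 genes was kept in all 6 fits, since 0 of their clones were called without array 2, 3, 4 or 6, where 8 to 10 had an unadjusted p under 0.05. Over the whole array, print-tip loess called only 1, 1, 23 and 1 clones without arrays 2, 3, 4 and 6, so this loss was not particular to the 6 genes. The log2 ratios that the authors deposited in their value table, centred on each array's median, gave 0 calls among the clones of the 6 genes with limma (against 0.308% of all clones), and 6 at an unadjusted p under 0.05, of which 2 were higher and 4 lower.

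Genes related to the 6 were described from lists that leave the 6 out, each gene by its clone of highest mean signal. Their counts stand against the 30.4% of all clones that were called by global and the 11.4% by print-tip loess. Of the 16 list clones named here for the largest ratio or smallest p of their list, 8 have titles in the scanner files that name no gene. They are those of Mapre2, Map4, Stmn1, Uchl5, Pgk1, Syn2, Star and Ngfr, and these rest on the platform annotation alone. By that clone no other intermediate filament gene was called by limma: 8 of 12 were tested, with ratios from -0.27 to 0.36 by global loess, and 1 by global and 3 by print-tip loess had an unadjusted p under 0.05. Over all 12 tested clones of these genes, global loess called 1 higher, a second clone of Lmnb1, a lamin of the nuclear envelope, and print-tip loess 0. Des, the desmin of muscle, had the smallest p, at 0.36 ± 0.15 (limma adjusted p = 0.094). Ina, the alpha-internexin that assembles with neurofilament chains in neurons, had 0.08 by global and 0.22 by print-tip loess (limma adjusted p = 0.73 and 0.26). Nefm and Prph, the medium chain and peripherin, were not analysed here.

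Among 23 microtubule-associated and axon growth genes, 5 were called higher and 2 lower by global loess, and 1 higher and 1 lower by print-tip loess. These shares, 30.4% and 8.7%, lie near those of all clones. Mapre2, a microtubule plus-end protein, had 0.88 ± 0.13 (limma adjusted p = 0.00076) and 0.49 by print-tip loess (limma adjusted p = 0.033). Map4, which binds microtubules in many cell types, had -0.82 ± 0.14 (limma adjusted p = 0.0019) for its clone in block 1 and -0.20 by print-tip loess (limma adjusted p = 0.12); of its 8 tested clones, global loess called 3 higher and 1 lower. Of the other stathmins, Stmn1, at 0.57 ± 0.16 (limma adjusted p = 0.017), and Stmn2, at 0.50 ± 0.12 (limma adjusted p = 0.0079), were called higher by global loess, and by print-tip loess they had 0.40 and -0.19 (limma adjusted p = 0.11 and 0.086). Print-tip loess called the other 2 clones of Stmn2 higher. Stmn4 was not called by either.

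Of the other ubiquitin C-terminal hydrolases, Uchl5, Uchl3 and Bap1, 0 of 3 were called by limma, with ratios of -0.39 to -0.02 by global and -0.02 to 0.02 by print-tip loess. Uchl5 alone had an unadjusted p under 0.05 by global loess (adjusted 0.060), and none had by print-tip loess. Over all 5 tested clones of these genes, global loess called 1 higher, a second clone of Bap1 at 0.83, and print-tip loess 0. Of 8 enolases and glycolytic genes, 3 were lower and 0 higher by global loess, and 0 lower and 2 higher by print-tip loess. The lowest were the glycolytic enzymes Aldoc and Pgk1, at -0.86 ± 0.14 and -0.81 ± 0.17 (limma adjusted p = 0.0016 and 0.0046), from clones in blocks 1 and 2, and by print-tip loess they had -0.24 and -0.31 (limma adjusted p = 0.093 and 0.059). The clones of Aldoc differed: of its 3 tested clones global loess called 1 higher and 1 lower, and print-tip loess called 1 higher. Over all 13 tested clones of these glycolytic genes, 1 was called higher and 3 lower by global loess, and 3 higher and 0 lower by print-tip loess.

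Among 11 pan-neuronal genes, 4 were called higher by global loess (36.4%) and 2 by print-tip loess (18.2%), and 0 lower by either. Over all 23 tested clones of these genes, global loess called 6 higher and 2 lower, with Snap25 called in both directions and Elavl2 lower, and print-tip loess called 2 higher (8.7%) and 0 lower. Syn1 and Syn2, the synapsins of synaptic vesicles, were called by both methods. Syn1 had 1.26 ± 0.27 by global and 1.17 by print-tip loess (limma adjusted p = 0.0048 and 0.031). Syn2 had 0.46 ± 0.16 and 0.43 (limma adjusted p = 0.042 and 0.035).

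Markers of the cell types in the gland moved too, and their part in the ratios of the 6 genes was not tested. Chromaffin cell markers were higher for 5 and lower for 1 of 8 genes by global loess (75.0% called), and for 3 and 1 by print-tip loess (50.0% called). Their median ratio was 0.82 by global and 0.52 by print-tip loess, and on single arrays it lay by global loess between -0.07 on array 1 and 1.49 on array 4. The granule proteins Scg3 and Chga had 1.36 ± 0.21 and 1.26 ± 0.20 (limma adjusted p = 0.0012 and 0.0013), and by print-tip loess 1.22 and 0.39 (limma adjusted p = 0.024 and 0.077). Print-tip loess called 1 of 3 Scg3 clones and 2 of 3 Chga clones higher. Slc18a1, titled by likeness to the rat granule amine transporter, was lower by both methods, at -0.41 ± 0.14 and -0.46 (limma adjusted p = 0.042 and 0.031). Over all 13 tested clones of the list, global loess called 9 higher and 1 lower, and print-tip loess 6 higher and 1 lower. Adrenal cortex markers were higher for 4 of 7 genes by global and 3 by print-tip loess, with 0 lower, a median of 0.64 by global and 0.67 by print-tip loess, and array medians by global loess of 0.07 on array 5 to 1.44 on array 2. Hsd3b1 and Star, which act in steroid synthesis, had 1.60 ± 0.30 and 1.53 ± 0.27 (limma adjusted p = 0.0029 on 5 arrays and 0.0020 on 6), and by print-tip loess 1.40 and 0.67 (limma adjusted p = 0.032 and 0.084).

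Schwann and sustentacular cell markers were called higher for 1 and lower for 1 of 8 genes by global loess, and for 0 by print-tip loess, where 2 had an unadjusted p under 0.05. Those called were the nerve growth factor receptor gene Ngfr, at -0.63 ± 0.22, and the myelin gene Pmp22, at 0.42 ± 0.15 (limma adjusted p = 0.041 and 0.047). By print-tip loess these clones had 0.00062 and 0.28 (limma adjusted p = 0.998 and 0.051). Over all 20 tested clones of the list, global loess called 2 higher and 5 lower, with Pmp22 and Mbp called in both directions, and print-tip loess called 0. The median of the 8 genes was -0.24 by global and -0.04 by print-tip loess. Background-subtracted signals exceeded local background in both channels on all 6 arrays for 8 of 8 chromaffin and 6 of 7 cortex genes. They did so for 3 of 8 Schwann and sustentacular genes. Markers of the cholinergic nerve fibres that reach the gland were not analysed here, as 0 of 4 had a named clone.

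**Figure D4:**
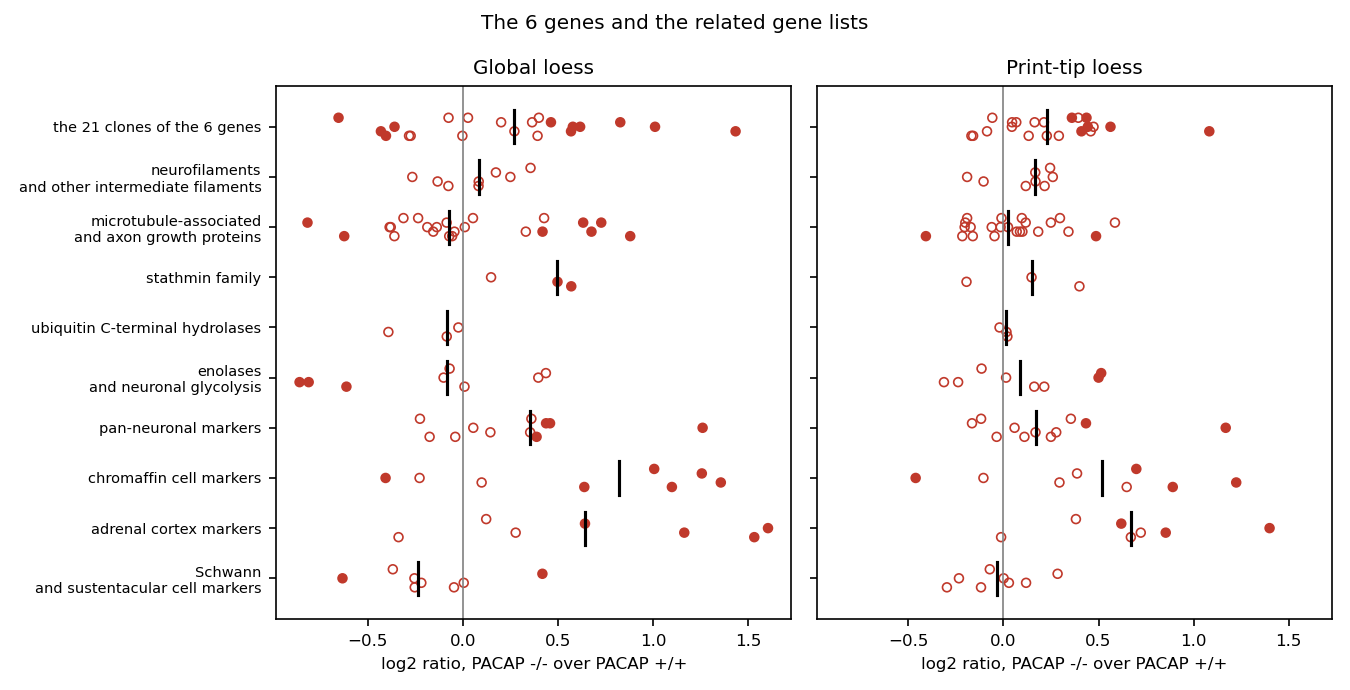
Log2 ratios, PACAP -/- over PACAP +/+, of the 21 clones of the 6 genes (top row) and of the genes of each related list (1 clone a gene, the 6 genes left out), by global loess on the left and print-tip loess on the right. Filled points had an adjusted p under 0.05, and bars are medians. Chromaffin and cortex markers have the highest global medians (0.82 and 0.64), and the medians of the other intermediate filament and microtubule lists lie close to 0 (0.08 and -0.07).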

How the data were processed

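Adrenal RNA of PACAP -/- mice (Cy3) and PACAP +/+ mice (Cy5) was compared on 6 arrays, taken as 6 replicates of 1 ratio. The labels do not say that arrays held RNA of separate animals, so p-values measure only the spread between arrays, which may be technical. Per the series design text, a GenePix 4000A scanner, IPLab and a FileMaker Pro database were used (versions: not given in the sources used here). The intensity columns were deposited with the local background already subtracted, as the files show: at the 768 empty positions the median was 1.0, in red and in green alike. The deposited ratio sets red over green and scales it by 1 number for each array, and the deposited quality score is a fraction between 0 and 1 that the authors used to keep spots above 0.3. The authors' value table holds log2 ratios of red over green after a further background subtraction, with values below 1 raised to 1; its scale and direction were recovered from the files, and its columns were not centred, with medians of -0.10 to -2.59.

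Here, log2 ratios of green over red (PACAP -/- over PACAP +/+) of spots with quality above 0.3 were normalized in every array, by global loess or print-tip loess, spots of a clone were averaged, and clones on at least 4 of 6 arrays were tested against 0 with limma 3.58.1 (R 4.3.3, lmFit and eBayes, Benjamini-Hochberg over 28704 clones, threshold 0.05). The fit was run on simulated arrays with and without shifts between blocks, and its pass criteria were applied only to those without. This run was therefore no check of the fit on arrays with shifts between blocks, as seen here. Differences between clones used a two-sided exact sign-flip permutation test (Python 3.11.15), which was also run on the ratios of each clone as an alternative to limma. Spots were named through the value table's annotation, joined where the values of all 6 arrays matched to 0.002 (35793 of 35873 rows, 99.8%); in the 2245 rows that also share an accession, all joins met that spot. Symbols were updated through RefSeq (GRCm38.p6). Of 36284 clones, 22368 had 1 gene, 1104 had several and were not named, and the rest were unnamed here; this annotation can be old, and for the 6 genes the titles from the scanner files are given where they differ. The number of arrays and the weak wild-type signal limit the precision. The 6 genes and the lists were chosen with earlier results of these data known. From each list, leaving out the 6 genes, the text names the 2 genes of largest ratio among those called, or the gene of smallest p where none was called, and for the pattern most like Nefl the 5 genes of highest correlation with its clone of highest mean signal. Ina, the clones titled but not annotated as members, and single list genes were picked with their values known. Alternatives were median centring, other quality and signal filters, the background added back, the value table, moderated variance with a trend, the exact permutation test of each clone, and arrays left out.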

Additional observations from a re-analysis of the deposited data

Results flagged for a closer look

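The Uchl1 clone in block 2 had 1 array far from the others. By global loess its log2 ratio, PACAP -/- over PACAP +/+, was -0.75 on array 6, and the next lowest of its 5 measured arrays was at 0.02. The gap was 0.797 of the whole range, above Dixon's critical value of 0.71 for 5 samples. By print-tip loess array 6 was at 0.18, below the other 4 arrays. This was 1 of 21 clones examined, and chance gives such a gap in about 1 of 20 groups.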

How the results depend on the processing

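No direction of a called clone among the 21 changed with median centring, a quality score above 0.5 or eBayes with trend. Nor did any change with background-subtracted signals above local background in both channels, added-back background or all 6 arrays required. Median centring lost 3 calls and gained 2, and added-back background lost 1 and gained 2. Sign changes between values that neither fit called are not counted as reversals. Print-tip loess gave 3258 calls over all clones against 8722 by global loess, 6 against 11 in the 6 genes and 25 against 59 in the list clones; it turned Stmn3 in block 9 to 0.044 and Uchl1 in block 2 to 0.44. No quality filter gave 7 calls in the 6 genes, and 1 clone a gene gave 4 of 6. By the exact permutation test of each clone, unadjusted, 5 of the 11 global calls had a p over 0.05. They were Nefh in block 45 (0.125), Map1b in block 25 and Stmn3 in blocks 3 and 9 (0.0625 each), and Uchl1 in block 29 (0.094). Nefh in block 2, not called, had 0.03125. Of the print-tip calls, Nefl in block 31 had 0.0625, as had Uchl1 in block 2, where 5 arrays allow no smaller p. Nefl in block 3 and Map1b in block 46, not called, had 0.03125. The value table gave 66 calls over all clones, or 88 when centred, and 0 in the 6 genes and the lists (7 and 6 clones of the 6 genes had an unadjusted limma p under 0.05, 7 higher and 0 lower as deposited, 2 higher and 4 lower when centred); its uncentred median over the 21 clones was 1.17. It put Stmn3 in block 3 at 1.36, or 0.62 when centred, Eno2 in block 10 at 0.14, and Nefl in block 47 at -0.33 when centred. Without arrays 2 and 4 the calls were 2235 over all clones, 3 in the 6 genes and 21 in the lists; with print-tip loess as well, a setting chosen after seeing the data, 93, 0 and 1, and Nefl in block 47 had -0.046, Stmn3 in blocks 3 and 9 had 0.0096 and 0.086, and Uchl1 in block 48 had -0.072. Leaving out each array in turn gave 4482 (without array 4) to 8659 calls over all clones, 5 to 11 in the 6 genes and 34 to 62 in the lists by global loess. By print-tip loess the counts over all clones were 3770, 1, 1, 23, 2692 and 1 without arrays 1 to 6, those in the 6 genes 5, 0, 0, 0, 4 and 0, and those in the lists 34, 0, 0, 0, 20 and 0. Stmn3 in block 9 then had 0.048, 0.097, 0.045, 0.025, 0.035 and 0.014, and Uchl1 in block 2 had 0.35 to 0.50, with 0.48 and 0.44 without arrays 1 and 5. Arrays 2 and 4 each lowered the global count in the 6 genes to 5 when left out, and array 3 to 6. Differences between Nefh clones ranged over these fits from -0.44 to -0.32 for block 1 minus 2 and from -1.41 to -1.06 for block 1 minus 45, where 5 arrays cannot give an exact p under 0.0625. Block 1 minus 2 was -0.32 with background added back (exact permutation p = 0.0625), block 1 minus 45 was -2.03 in the value table (0.125), and block 2 minus 45 was -0.87 with median centring (0.03125). Eno2 block 7 minus 10 was 0.53 by print-tip loess, 0.45 with median centring and 1.77 in the value table (exact permutation p = 0.03125 each). The cause of these changes was not tested. Among clones titled for their gene, a limit added after seeing the data, 10 of 17 were called by global loess (58.8%, against 30.4% of all clones). By print-tip loess 3 of these 17 were called (17.6%, against 11.4% of all clones). For 7 of the tested clones the background-subtracted wild-type signal was not above local background on 1 to 3 arrays, which limits their ratios. No paired analysis was possible because each array is already a ratio of both genotypes and all arrays form 1 group.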
